A study of Homo sapiens with 24 samples.

Results

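The RNA of 10 genes of fatty acid oxidation and its transcriptional control was followed in 24 libraries: the carnitine palmitoyltransferases CPT1A, CPT1B and CPT2, the acyl-CoA dehydrogenases ACADM and ACADVL, the 2 subunits of the mitochondrial trifunctional protein HADHA and HADHB, the fatty acid carriers FABP3 and CD36, and the coactivator PPARGC1A. The genes were chosen by name, with earlier results of these data known, and are 10 of the 62757 genes in the deposited count table. The libraries come from human embryonic stem cells of the reporter line HES3_NKX2-5GFP_NR2F2mCherry, an established line whose NKX2-5 and NR2F2 loci carry GFP and mCherry, and which every group shares. The cells were edited with CRISPR-Cas9 at TRAC, a T cell receptor locus that served as control, or at LHX2, ZNF503 or ZNF711, and were then differentiated to cardiac cells in embryoid bodies for at most 14 days. Sets were grown in a condition read here as atrial (labelled AM), which received retinoic acid on day 4, and in one read as ventricular (labelled VM), which did not. Each of the 8 combinations of protocol and target has 3 libraries. The labels do not say whether the 3 came from separate differentiations or clones, so the p-values measure the spread between these libraries, which may be technical. The libraries hold 2899786 to 7438010 counts (median 5113567).

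Long-chain fatty acids enter the cell with the help of CD36 and are carried in the cytosol of heart muscle by FABP3. CPT1A and CPT1B, the liver and muscle isoforms, attach them to carnitine at the outer mitochondrial membrane, and CPT2 reverses this inside. ACADVL and ACADM then carry out the first step of beta-oxidation on very long and medium chains, and HADHA and HADHB carry out the later steps on long chains. PPARGC1A encodes PGC-1 alpha, a coactivator of PPAR and ERR nuclear receptors, which drive these genes in energy-demanding tissues. Heart muscle shifts from glucose toward fatty acid use around birth.

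Members lie on chromosomes 1, 2, 4, 7, 11, 17 and 22, and HADHA (chromosome 2, 26190635 to 26244726, minus strand) and HADHB (26243170 to 26290468, plus strand) overlap head to head in GENCODE 29. RefSeq promoter windows of 250 bases upstream of a start were found for 9 of the 10 members (16 windows, GRCh38.p14). The windows of HADHA and HADHB share 194 bases, and their starts lie 306 bases apart. Only 21 bases of the shared part lie outside GENCODE exons. Those 21 bases, the 117 exon-free bases of the CPT1A window, the FABP3 window, which lies inside the GENCODE gene but outside its exons, and the window at the distal PPARGC1A start are shown because these genes lead the comparisons below or share a start region. The distal PPARGC1A start lies upstream of the GENCODE gene (23755041 to 23904089). The window at the start inside that gene, 23881101, held no searched motif and is not shown. Which start the cells used was not tested. Capitals mark CACGTG, an E-box; no other searched motif falls in the 4 stretches. Each is written 5 prime to 3 prime on the strand given.
HADHA and HADHB shared, chr2:26244727-26244747, plus strand: ccggccccttagccctgcccc
CPT1A, chr11:68844411-68844527, minus strand: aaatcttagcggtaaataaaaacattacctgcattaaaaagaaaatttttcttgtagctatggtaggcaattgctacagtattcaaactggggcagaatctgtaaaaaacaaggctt
FABP3, chr1:31373077-31373326, minus strand: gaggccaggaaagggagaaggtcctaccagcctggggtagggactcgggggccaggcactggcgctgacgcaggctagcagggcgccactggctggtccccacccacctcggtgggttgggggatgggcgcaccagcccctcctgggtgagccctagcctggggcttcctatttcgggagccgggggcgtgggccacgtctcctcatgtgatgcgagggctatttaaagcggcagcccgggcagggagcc
PPARGC1A, chr4:24472906-24473155, minus strand: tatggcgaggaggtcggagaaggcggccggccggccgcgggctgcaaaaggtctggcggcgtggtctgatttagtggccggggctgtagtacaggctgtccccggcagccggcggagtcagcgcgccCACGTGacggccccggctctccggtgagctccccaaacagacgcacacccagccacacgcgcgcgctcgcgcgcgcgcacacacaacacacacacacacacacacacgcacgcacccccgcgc
Windows were searched on both strands for the nuclear receptor half-site AGGTCA, which the receptors coactivated by PGC-1 alpha are known to bind. It was in none of the 16 member windows, against 12.1% of 35116 RefSeq windows of the same length. The 16 windows are not all separate, as some windows of CD36 overlap each other and those of HADHA and HADHB share bases. The longer form AAGGTCA, which contains the half-site and is typical of ERR receptors, is in 3.44% of all windows. Of the 16 member windows, the GC box GGGCGG was in 1 each of CPT2, ACADM, HADHA, HADHB and ACADVL, against 42.6% of all windows. The HADHA match lies in the bases shared with HADHB and is also 1 of the HADHB matches. The E-box is in 6.34% of all windows and among the members was found at the distal PPARGC1A start. Of the remaining motifs, the CCAAT box (32% of all windows) was found at 1 start of CD36, and the TATA box, searched as TATAAA (10.7%), at 2 starts of CD36 and 1 of ACADVL. A match is a description of letters and not evidence of binding.

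Levels are given as CPM, the counts of a library scaled by its TMM-adjusted total, and are compared between genes only per kilobase of exon. The length is that of all annotated exons together (10452 bases for CPT2). A gene whose main transcript is shorter than this therefore reads too low. The SD is over the 12 libraries of a protocol, whatever their target. In AM, ACADVL was highest at 61.9 ± 7.84 CPM per kilobase (SD, n = 12), then HADHA at 50.3 ± 7.35, FABP3 at 41.6 ± 12.4 and HADHB at 29.3 ± 5.02. CPT1A (12.8 ± 1.69), ACADM (11.2 ± 1.28) and PPARGC1A (10.8 ± 2.14) followed, each pair differing by less than the larger of its 2 SDs. CPT2 was at 3.73 ± 0.492, CPT1B at 0.302 and CD36 at 0.0744. In VM, FABP3 led at 74.6 ± 15.6, followed by HADHA at 57.8 ± 7.25, ACADVL at 50.4 ± 6.90 and HADHB at 28.1 ± 4.18. ACADM (11.03 ± 2.83), PPARGC1A (6.93 ± 2.59), CPT1A (6.27 ± 2.07) and CPT2 (4.80 ± 0.878) came next. PPARGC1A and CPT1A, and likewise CPT1A and CPT2, differed by less than the SD of CPT1A, while ACADM above them and CPT1B below lay farther off. CPT1B stood at 0.240 and CD36 at 0.193. By mean, FABP3 held rank 3 in AM and rank 1 in VM, and CPT1A rank 5 and rank 7. The CPT1A ranks are not resolved, as the SDs above show. In AM, FABP3 differed from HADHA and from HADHB by less than its SD of 12.4, so its rank there is not resolved either. CPT1B, the muscle isoform, had 0 to 16 counts in a library and CD36 0 to 15, so values for both rest on few reads. CPT1B shares 66.4% of its exon bases with the same-strand read-through gene CHKB-CPT1B (0 to 13 counts). How reads in that stretch were counted is not given in the sources used here, so the CPT1B levels are uncertain.

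The labelled cell type was checked against markers. TNNT2 and MYH6, defining genes of cardiomyocytes, were at 353 and 7795 CPM in AM and at 325 and 8412 in VM. The summed CPM of 15 cardiomyocyte markers was 16840 to 34380 in AM and 13600 to 45210 in VM, with titin (TTN) the largest. That of 14 hepatic and endoderm markers was 241 to 2262 in AM and 2097 to 36760 in VM, led by AFP. Within VM, replicate 3 of TRAC, LHX2 and the libraries labelled ZNF503, and all 3 ZNF711 libraries, stood apart. Their cardiomyocyte sums were 13600 to 23830, against 41030 to 45210 in the other 6, and their hepatic sums 12860 to 36760, against 2097 to 5493. Over the mean of the 4 targets, AM against VM, against 16.8% of all tested genes called higher and 17.6% called lower, 1 of 15 cardiomyocyte markers was called higher (TNNI3) and 8 lower, and 1 of 14 hepatic markers higher (FOXA1) and 10 lower; both names were picked out after their values were seen. The cardiomyocyte markers went the other way in ZNF711, where 4 were called higher and 1 lower with a median log2 difference of 0.76. Their medians were -0.79 in TRAC (1 higher, 3 lower), -0.89 in LHX2 (0 and 6) and -1.04 in the libraries labelled ZNF503 (1 and 7); a difference between targets was not tested for the list. Of 10 endothelial markers 6 were called higher and 0 lower, with summed CPM of 433.5 to 830.1 in AM and 341 to 490.3 in VM; PECAM1 was at 50.2 and 47.3 CPM. Of 8 fibroblast and stromal markers 4 were called higher and 0 lower, with sums of 4138 to 7319 in AM and 1710 to 4921 in VM, led by COL3A1. Of the 10 macrophage and blood markers 3 could be tested and 0 were called, with sums of 9.48 to 29.1 in AM and 10.3 to 23.99 in VM; PF4 and HBE1 were at 0 in every library. Of the 6 adipocyte markers 3 could be tested and LIPE, the largest, was called higher (sums of 16.2 to 27.8 in AM and 9.97 to 18.2 in VM), while LEP was at 0 in every library. The part of these markers in the members' values was not tested. Fewer cells of a type and less RNA per cell cannot be told apart in bulk libraries.

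Each targeted gene's own RNA was compared with TRAC as a check of the labels. LHX2 was at 0 to 6.92 CPM over the 24 libraries and TRAC at 0 to 3.46, too few counts to check either label. ZNF711 was at 42.7 ± 12.4 CPM in AM ZNF711 and 54.4 ± 6.51 in AM TRAC (SD, n = 3; log2 -0.34, edgeR adjusted p = 1), and at 30.9 ± 4.34 against 40.04 ± 7.06 in VM (log2 -0.37, adjusted p = 0.567). The libraries labelled ZNF503 held more ZNF503 RNA than TRAC did: 297 ± 60.7 against 112 ± 9.79 CPM in AM (log2 1.40, adjusted p = 0.295) and 35.7 ± 14.4 against 13.2 ± 3.91 in VM (log2 1.42, adjusted p = 1).

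**Figure D1:**
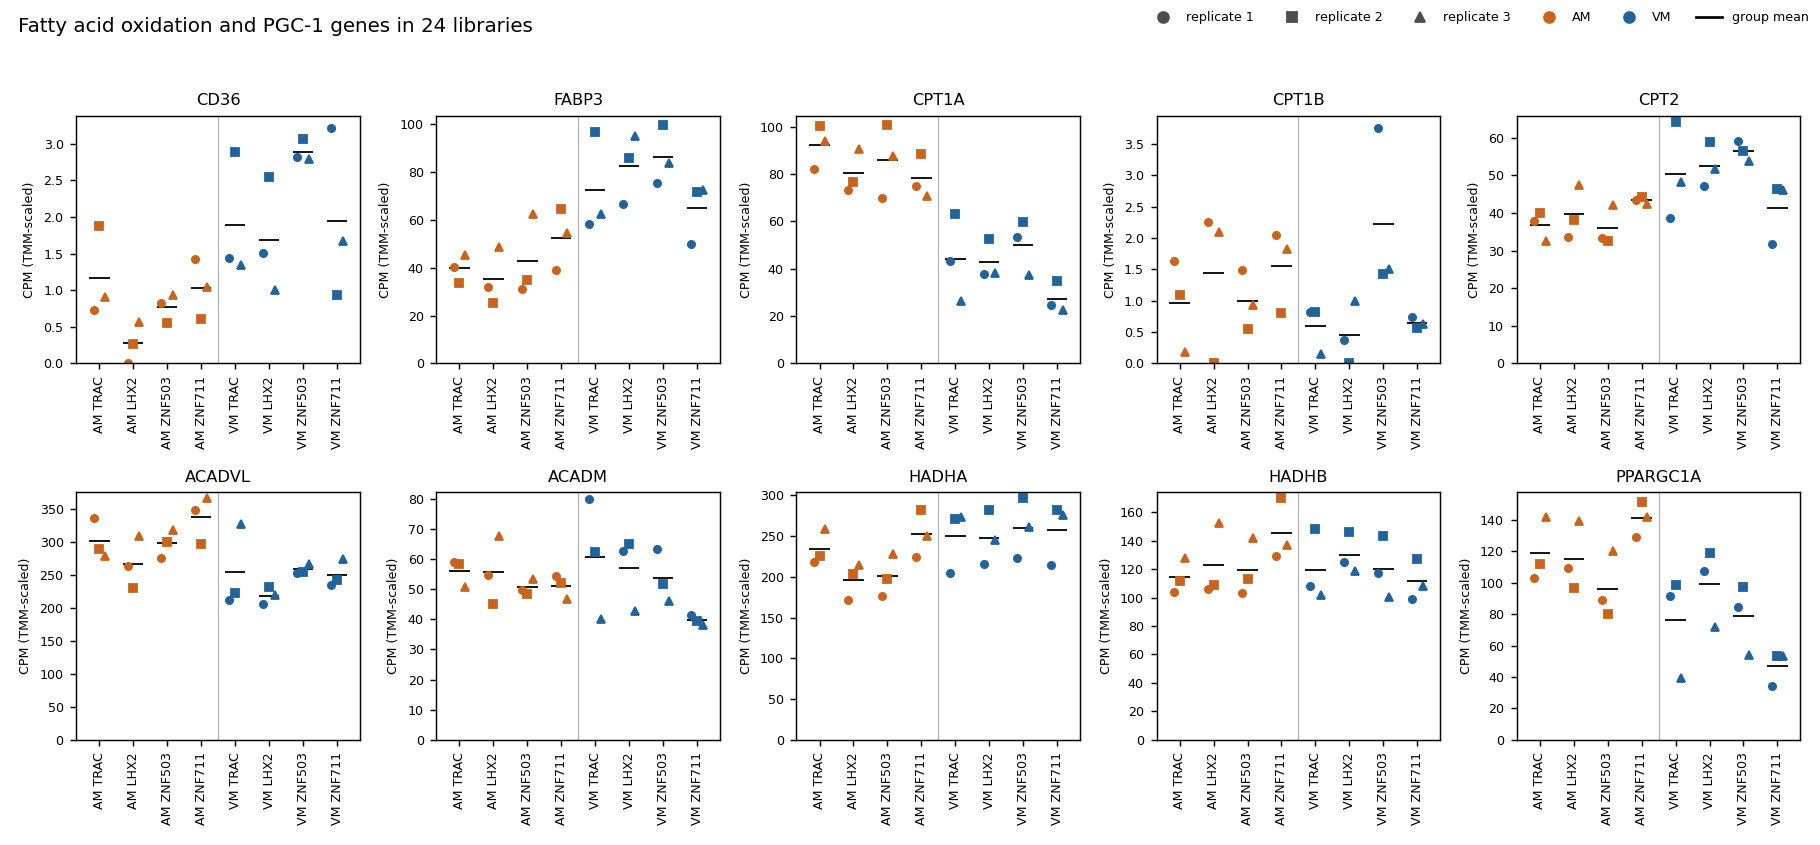
CPM (TMM-scaled) of the 10 genes in every library, by protocol and target; symbols mark replicates, bars group means, and each axis starts at 0. CPT1A is higher in all AM libraries than in all VM libraries. FABP3 is lower in all AM than in all VM libraries of every target except ZNF711, where the groups overlap.

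The first comparison asked how the atrial and ventricular conditions differ within each target. With edgeR's quasi-likelihood test and adjustment over 17724 tested genes (called at adjusted p below 0.05), 2 of the 10 members were called in TRAC, against 11.3% of all genes. The count was 2 in LHX2 (8.56% of all genes), 3 in the libraries labelled ZNF503 (8.86%) and 2 in ZNF711 (13.2%). Averaged over the 4 targets, 7 were called, against 34.5% of all genes: 3 higher in AM (16.8% of all genes) and 4 lower (17.6%). With the replicate number as a block the counts were 2 (19.4% of all genes) in TRAC, 3 (15.7%) in LHX2, 4 (14.9%) in the libraries labelled ZNF503, 3 (23.4%) in ZNF711 and 7 (41.7%) over the mean. In TRAC, 2 members had all AM libraries above all VM libraries (14.3% of all genes) and 1 had all below (11.7%). The counts above and below were 1 (12.5%) and 3 (11.4%) in LHX2, and 2 (12.7%) and 3 (10.8%) in the libraries labelled ZNF503. In ZNF711 they were 6 (16.5%) and 0 (16.4%). Over the mean of the 4 targets the median log2 difference was 0.05 for the members and -0.01 for all tested genes.

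CPT1A, the outer-membrane gate of the pathway, was higher in AM. In TRAC it was at 81.9, 100.4 and 94.0 CPM in AM and at 43.3, 62.9 and 26.4 in VM. The 3 AM libraries lay above the 3 VM libraries. The log2 difference was 1.07 (SE 0.24, edgeR adjusted p = 0.00343). In LHX2 it was at 73.2, 76.8 and 90.7 CPM against 37.8, 52.7 and 38.2 (log2 0.91, adjusted p = 0.0159). In the libraries labelled ZNF503 it was at 70.01, 100.5 and 87.7 against 53.5, 59.9 and 37.2 (0.78, adjusted p = 0.0375). In ZNF711 it was at 74.9, 88.6 and 70.8 against 24.7, 34.8 and 22.6, and this was the largest of the 4 estimates (1.51, adjusted p = 0.000162). Over the mean of the 4 targets CPT1A was 84.1 against 41.2 CPM, log2 1.06 (SE 0.12, adjusted p = 1.28e-07), and all 12 AM libraries lay above all 12 VM libraries, which held for 1 of the 10 members and for 2.69% of all genes. The lowest AM library had 70.01 CPM and the highest VM library 62.9. The call in TRAC was lost in a fit of the TRAC libraries alone (adjusted p = 0.0514), which called 6.44% of all genes. That in LHX2 was lost without AM replicate 3 or VM replicate 1 or 3 (adjusted p 0.0660 to 0.0738). That in the libraries labelled ZNF503 was lost without AM replicate 2 or 3 or VM replicate 1 or 3 (adjusted p 0.0729 to 0.194), and with replicate 3 of all 4 VM groups left out together, an alternative chosen after seeing the data (adjusted p = 0.0609). With the replicate number as a block, CPT1A was called in all 4 targets (edgeR adjusted p 3.78e-07 to 0.00174).

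FABP3, the cytosolic carrier of heart muscle, was called lower in AM in 3 of the 4 targets. In TRAC it was at 40.3, 33.6 and 45.2 CPM in AM and at 58.5, 96.7 and 62.3 in VM, with no overlap. The log2 difference was -0.87 (SE 0.27, adjusted p = 0.0373). In LHX2 it was at 32.1, 25.1 and 48.7 against 66.6, 85.9 and 95.3 CPM (-1.21, adjusted p = 0.00551). In the libraries labelled ZNF503 it was at 31.3, 35.0 and 62.6 against 75.3, 99.7 and 83.8 CPM (-1.01, adjusted p = 0.0173), and neither pair of groups overlapped. In ZNF711 the 2 groups overlapped: 38.9, 64.6 and 54.4 against 50.0, 71.7 and 72.7 CPM, with log2 -0.30 (adjusted p = 0.518; -0.12 without AM replicate 1 and -0.47 without AM replicate 2). The mean over the 4 targets was -0.85 (42.6 against 76.5 CPM, adjusted p = 2.61e-05). The difference between ZNF711 and TRAC in the AM against VM effect was 0.57 (SE 0.38, edgeR adjusted p = 0.922). The effect is thus not shown to differ between these targets. The call in TRAC was lost without AM replicate 1, 2 or 3 or VM replicate 2 (adjusted p 0.0576 to 0.189), and that in the libraries labelled ZNF503 without AM replicate 1 or 2 or VM replicate 2 (adjusted p 0.0773 to 0.114). With the replicate block, FABP3 was called in TRAC, LHX2 and the libraries labelled ZNF503 (edgeR adjusted p 0.000558 to 0.00737), not in ZNF711 (0.364).

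PPARGC1A, the coactivator, was higher in AM on average, with the largest estimate in ZNF711. In that target the summed cardiomyocyte markers were also higher in AM (24850 to 34380 CPM against 13600 to 19380), which differs from the other targets, and the part of this in the PPARGC1A, CPT1A and FABP3 values of ZNF711 was not tested. In TRAC it was at 103, 112 and 142 CPM in AM and at 91.7, 98.4 and 39.3 in VM (log2 0.64, adjusted p = 0.159), with no overlap and VM replicate 3 lowest. Without that library the difference was 0.33 (adjusted p = 0.491), and without a filter on low counts it passed the threshold (0.66, adjusted p = 0.00705). In ZNF711 it was at 129, 152 and 142 CPM in AM and 34.4, 53.6 and 53.1 in VM, with no overlap, log2 1.58 (SE 0.29, adjusted p = 0.000904). In LHX2 it was at 109, 96.7 and 139 against 108, 119 and 71.6 CPM (0.21, adjusted p = 0.751), and in the libraries labelled ZNF503 at 88.8, 79.8 and 120.3 against 84.5, 97.2 and 53.9 (0.29, adjusted p = 0.659), with overlap in both. Without VM replicate 3 these 2 differences were 0.03 and 0.08, and without VM replicate 2 they were 0.36 and 0.48. The mean over the 4 targets was 0.68 (SE 0.14, adjusted p = 0.000637), at 118 against 75.4 CPM. In VM, the libraries that stand apart in markers were at 34.4 to 71.6 CPM. The other VM libraries, at 84.5 to 119, lay within the AM range of 79.8 to 152. The part of this split in the mean difference was not tested. The difference between ZNF711 and TRAC in the AM against VM effect (interaction) was 0.94 (SE 0.40, adjusted p = 0.725), so the effect is not shown to differ between these targets. With replicate 3 of all 4 VM groups left out together, an alternative chosen after seeing the data, the interaction was 1.36 (edgeR adjusted p = 0.00859, with 1.53% of all genes called). In that fit every VM ZNF711 library stands apart in markers and no VM TRAC library does. Target and marker content therefore cannot be told apart there.

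Among the remaining members, CPT2, the inner-membrane transferase, was lower in AM over the mean of the targets (39.0 against 50.2 CPM, log2 -0.36, adjusted p = 0.00375), and was called in the libraries labelled ZNF503 (-0.65, adjusted p = 0.0254). Its lowest, median and highest library was at 32.4, 39.1 and 47.5 CPM in AM and at 31.6, 49.9 and 64.2 in VM, with overlap. The call in the libraries labelled ZNF503 was lost without AM replicate 1 or 2 or VM replicate 1 or 2 (adjusted p 0.0650 to 0.127) and without a filter on low counts (adjusted p = 0.0531). ACADVL, the very long chain dehydrogenase, was higher (301 against 245 CPM, log2 0.29, adjusted p = 0.00308), with 229.8, 298.5 and 367 CPM as lowest, median and highest in AM and 205.5, 238 and 327 in VM. HADHA was lower by 0.21 on the log2 scale (221 against 254 CPM, adjusted p = 0.0398), at 171.8, 221 and 282.5 CPM as lowest, median and highest in AM and 204, 265.6 and 297 in VM. Another filter or scaling by library size ended that call (adjusted p 0.0569 to 0.128), as did 16 of the 24 fits without 1 library and the fit without replicate 3 of the 4 VM groups (adjusted p = 0.118). CD36, the uptake receptor, was lower (52 counts in 12 AM libraries against 121 in 12 VM libraries, log2 -1.44, adjusted p = 0.00262). For ACADM (log2 0.03, 95% interval -0.17 to 0.24), HADHB (0.06, -0.12 to 0.24) and CPT1B (0.61, -0.39 to 1.61) no difference was called. ACADM was at 45.2 to 67.5 CPM in AM and 38.0 to 80.0 in VM, and HADHB, the partner subunit of HADHA, at 104 to 170.3 and 98.9 to 148. With the replicate block, HADHA was also called in LHX2 (log2 -0.33, adjusted p = 0.0161) and in the libraries labelled ZNF503 (-0.37, adjusted p = 0.00641), as was ACADVL in ZNF711 (0.43, adjusted p = 0.00643; 0.0563 without the block). ACADVL in ZNF711 was also called with library size scaling, with DESeq2, in a fit of those 2 groups alone and without replicate 3 of the 4 VM groups (adjusted p 0.0153 to 0.0381), and without AM replicate 2 (0.0469).

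**Figure D2:**
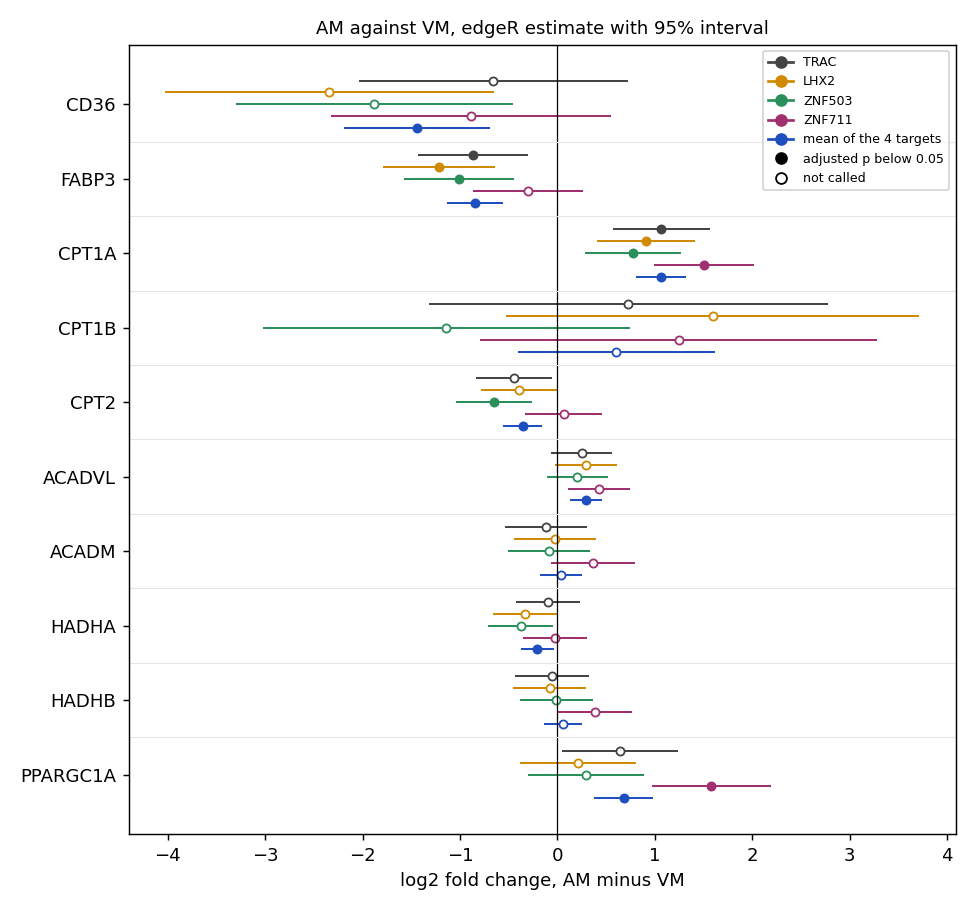
log2 fold change of AM minus VM (edgeR estimate, 95% interval) for the 10 genes in each target and for the mean of the 4. Filled points are called at adjusted p below 0.05. CPT1A lies to the right of 0 in every target, from 0.78 to 1.51.

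The second comparison asked what targeting LHX2, ZNF503 or ZNF711 changed against TRAC in the same condition. No member was called in any of the 6 comparisons. Of the 17724 tested genes edgeR called 0 in 5 of them and 3 (0.0169%) in ZNF711 under VM. With no filter on low counts it called 97, 16 and 99 of 38838 genes in AM for LHX2, the libraries labelled ZNF503 and ZNF711, and 136, 4 and 495 in VM. DESeq2 called 20, 1 and 0 genes in AM and 1, 1 and 64 in VM, and no member in any. Without the filter PPARGC1A was called in ZNF711 under VM (adjusted p = 0.0201), against 1.27% of all genes. At an unadjusted p below 0.05, 3 members passed in ZNF711 under VM, against 9.40% of all tested genes, and 1 in LHX2 under AM (CD36, with few counts), against 7.74%. In the other 4 comparisons 0 members passed, against 1.74% (libraries labelled ZNF503) and 3.49% (ZNF711) of all genes in AM, and 2.61% (LHX2) and 1.55% (libraries labelled ZNF503) in VM. The 3 in ZNF711 were CPT1A (log2 -0.68, 95% interval -1.18 to -0.18, adjusted p = 0.343), ACADM (-0.61, -1.03 to -0.20, adjusted p = 0.296) and PPARGC1A (-0.69, -1.29 to -0.09, adjusted p = 0.447). CPT1A stood at 24.7, 34.8 and 22.6 CPM in VM ZNF711 and at 43.3, 62.9 and 26.4 in VM TRAC. ACADM, which oxidises medium chains, stood at 41.5, 39.5 and 38.0 against 80.0, 62.3 and 40.2 CPM. In each case TRAC replicate 3 was the lowest TRAC library and lay within the range of the 3 ZNF711 libraries. Without TRAC replicate 3 all 3 passed the threshold (CPT1A -0.97, adjusted p = 0.0200; ACADM -0.86, adjusted p = 0.0170; PPARGC1A -1.03, adjusted p = 0.0227), in a fit that called 3.44% of all genes. The other TRAC libraries moved the values the other way. CPT1A was -0.35 without TRAC replicate 2 (adjusted p = 0.9003), ACADM -0.37 without TRAC replicate 1 (0.850) and PPARGC1A -0.48 without TRAC replicate 2 (0.885). With replicate 3 of all 4 VM groups left out, an alternative chosen after seeing the data, the 3 passed (edgeR adjusted p 0.00315 to 0.0298), in a fit that called 4.83% of all genes. That fit drops TRAC replicate 3 too, so it is not a separate check of the fit without that library. TRAC replicate 3 has a hepatic marker sum of 34880 CPM, against 5493 and 4413 in TRAC replicates 1 and 2, and a cardiomyocyte sum of 17940. In the VM ZNF711 libraries the cardiomyocyte sum was 13600 to 19380. The part of these markers in the result was not tested. With the replicate block no member was called in any of the 6 comparisons, while 1.13% (LHX2), 0.00564% (libraries labelled ZNF503) and 0.0395% (ZNF711) of all genes were called in AM, and 0.00564%, 0% and 2.27% in VM. The adjusted p in VM ZNF711 was then 0.0515 for CPT1A, 0.0604 for ACADM and 0.311 for PPARGC1A. For the 8 members other than CD36 and CPT1B the 95% intervals, which are not adjusted, reached 0.31 to 0.60 on the log2 scale to either side. Smaller differences could thus not be resolved with 3 libraries a group. Differences beyond 0.60 could also go uncalled after adjustment, as CPT1A (-0.68), ACADM (-0.61) and PPARGC1A (-0.69) did in VM ZNF711. The difference between a target and TRAC in the AM against VM effect was called for no member in any of the 3 targets by edgeR or DESeq2, with 1 member (PPARGC1A in ZNF711) at an unadjusted p below 0.05, against 6.40% of all genes there. With LHX2 the share of all genes was 3.72%, and for the libraries labelled ZNF503 it was 1.95%. Over all genes edgeR called 1 such difference (0.00564%), in ZNF711.

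**Figure D3:**
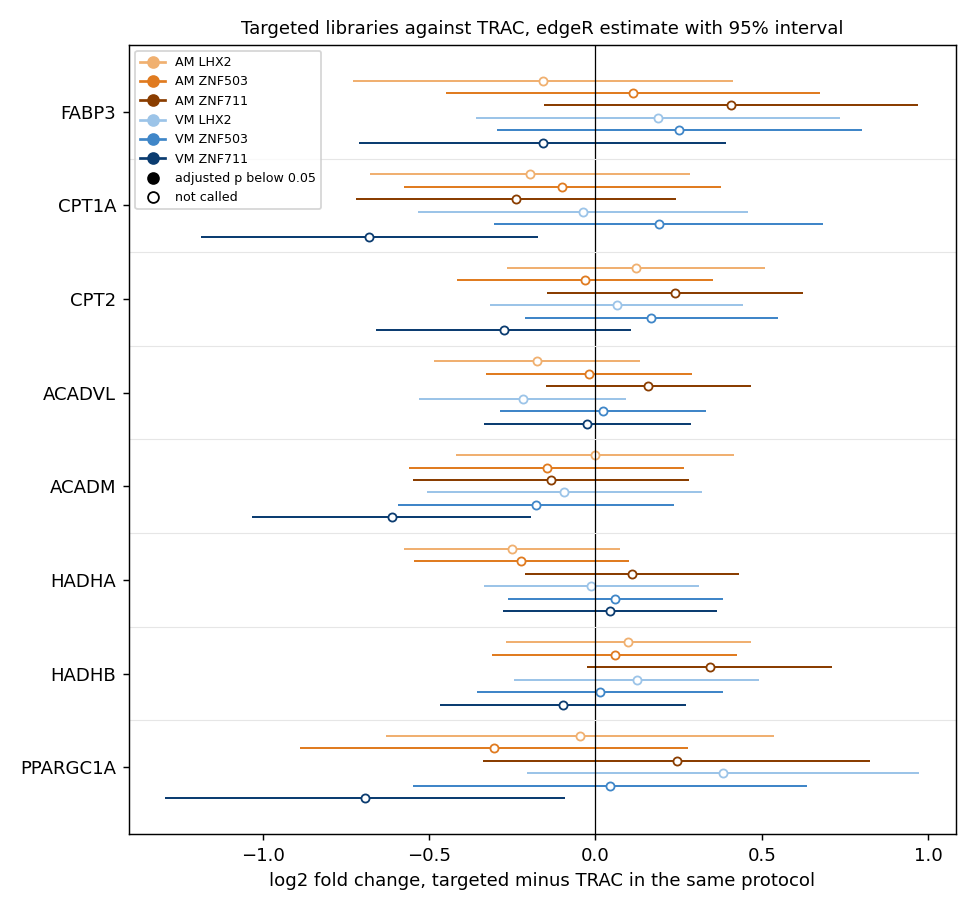
log2 fold change of targeted minus TRAC libraries (edgeR estimate, 95% interval) for 8 members in both protocols; CD36 and CPT1B are not drawn because their counts are low. No point is filled, as none is called, and the 3 farthest from 0 are CPT1A, ACADM and PPARGC1A in VM ZNF711.

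**Figure D4:**
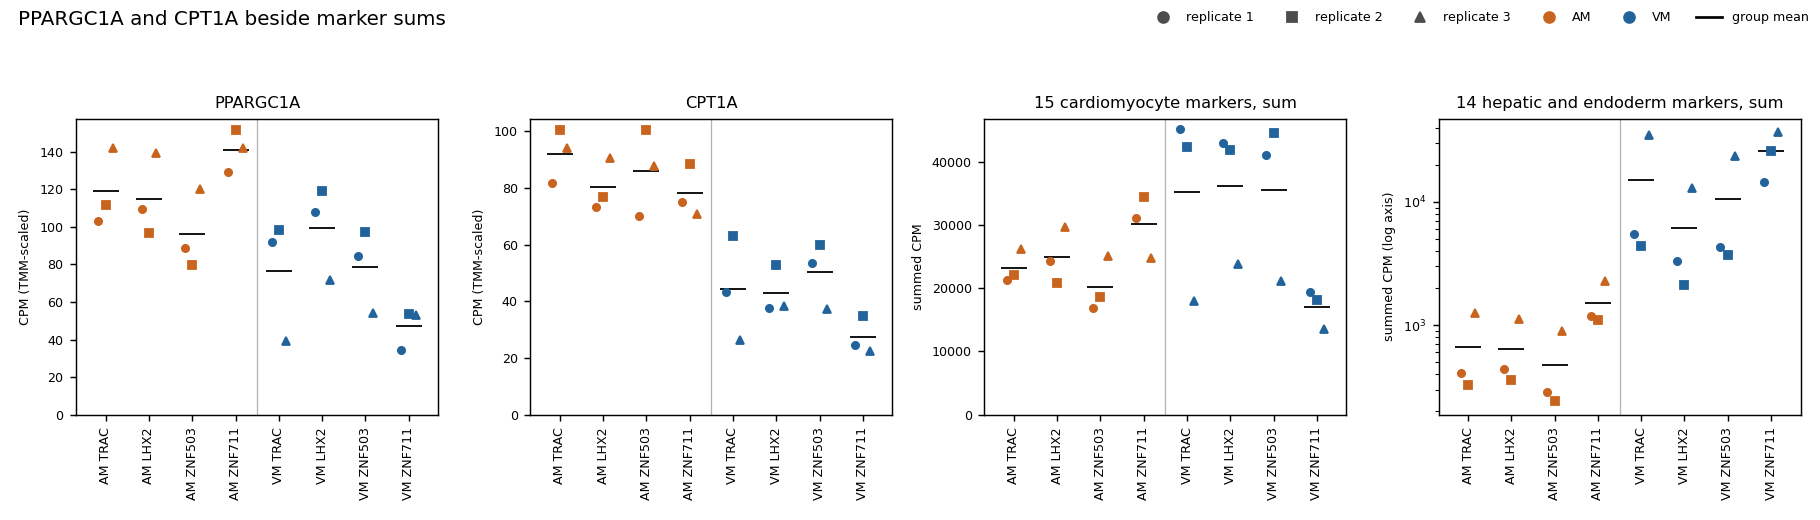
PPARGC1A, CPT1A and the summed CPM of cardiomyocyte and hepatic markers in each library (hepatic axis logarithmic). In VM, the libraries low in PPARGC1A are low in the cardiomyocyte sum and high in the hepatic sum.

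Genes most like PPARGC1A across libraries were named by Pearson's r of log2 CPM among 11428 genes, as a description. Within the 12 AM libraries they were EPB41L3 (0.973), ATP2A2 (0.969), the calcium pump of the sarcoplasmic reticulum, and A2M (0.959). Within the 12 VM libraries they were QKI (0.984), an RNA-binding protein, ARHGAP31 (0.968) and NEBL (0.967), a Z-disc protein. The VM libraries form 2 sets of 6, those that stand apart in markers and the rest, and r within these was 0.957 and 0.987 for QKI, 0.871 and 0.86 for ARHGAP31, and 0.857 and 0.967 for NEBL. Nearest to FABP3 in AM were ACP3 (0.947), ATP5MC3 (0.929) and PACSIN2 (0.925). In VM they were RNF10 (0.94), KLF11 (0.918) and LINGO1 (0.917), with 0.894 to 0.97 within the 2 sets. Near CD36, with few counts, they were RNF8, MTCH2 and MGST2 in AM and COPS7B, GTF3C1 and ADGRL1 in VM (0.857 to 0.876). Without the 2 libraries farthest from the CD36 median, r was 0.65 to 0.761 in AM and 0.748 to 0.873 in VM. HADHA and HADHB had r of 0.736 over the AM libraries, and of 0.415 and 0.923 within the 2 VM sets. PPARGC1A and CPT1A had r of 0.027 in AM and of 0.67 and -0.157 within the 2 VM sets. Libraries in each of these share protocol, and groups of them share a target or a replicate number.

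Among 62 other genes of fatty acid handling (59 tested), over the mean of the targets 8 were higher (13.6%) and 15 lower (25.4%) in AM, against 16.8% and 17.6% of all tested genes. The median log2 difference was -0.15 over these 59 and -0.01 over all tested genes. FABP5, the epidermal fatty acid binding protein, was higher at 17.5 against 5.91 CPM (log2 1.56, adjusted p = 1.65e-07), with all AM libraries above all VM libraries. PPARG, the adipogenic receptor, was 6.81 against 2.78 CPM (1.31, adjusted p = 0.000436), and LPL, the lipoprotein lipase, 16.1 against 9.31 (0.77, adjusted p = 0.00148). Of genes that fell, the acyl-CoA synthetase ACSL5 stood at 1.46 against 10.7 CPM (-2.97, adjusted p = 0.00017) and ACSL4 at 60.1 against 169.9 (-1.47, adjusted p = 1.18e-06). The ACSL5 mean in VM rests on the 6 libraries that stand apart (8.005 to 30.55 CPM), as the other 6 VM libraries, at 1.86 to 4.32, overlapped the AM libraries at 0.204 to 4.19. ACSL4 was also higher in those 6 (163 to 274) than in the other 6 (104 to 119), which still lay above the AM libraries (46.3 to 79.9). CIDEC, a lipid droplet protein, had no count in any AM library and a mean of 1.49 CPM in VM. In VM it was at 0.80 to 4.51 CPM in the 6 libraries that stand apart and at 0 to 1.24 in the other 6, with few counts. PPARGC1B, the coactivator akin to PPARGC1A, moved the other way: 15.1 against 34.7 CPM (-1.18, adjusted p = 1.66e-07). KLF15 was also lower (log2 -1.20, adjusted p = 1.25e-05). By role, 3 of 12 uptake, activation and storage genes were higher and 6 lower. Of the 14 other mitochondrial beta-oxidation genes 0 were higher and 3 lower, and of the 13 PPAR, ERR and PGC-1 regulators 3 were higher and 3 lower. The 7 carnitine and malonyl-CoA genes and the 6 peroxisomal genes each had 1 higher and 1 lower, and the 7 tested PPAR and ERR responsive genes 0 higher and 1 lower. Single targets gave fewer calls among the 59 genes: 3 higher and 8 lower in the TRAC libraries, 4 higher and 3 lower with LHX2 targeted. The libraries labelled ZNF503 gave 2 higher and 5 lower, and those of ZNF711 4 higher and 8 lower. As shares called these are 18.6%, 11.9%, 11.9% and 20.3%, against 11.3%, 8.56%, 8.86% and 13.2% of all genes. With the replicate block the lower calls were 14 in TRAC, 11 in LHX2, 10 in the libraries labelled ZNF503, 11 in ZNF711 and 22 over the mean; the higher calls were 3, 4, 4, 8 and 9. The shares called with the block were 28.8%, 25.4%, 23.7%, 32.2% and 52.5%, against 19.4%, 15.7%, 14.9%, 23.4% and 41.7% of all genes. Of the genes of this list that were called, those with the largest fitted changes in TRAC were FABP5, CPT1C and NRIP1 (higher) and CIDEC, PLIN5 and KLF15 (lower), and in ZNF711 FABP5, ESRRG and CPT1C (higher) and CIDEC, ACSL5 and ACSL4 (lower). Among called genes in LHX2 they were PPARG, FABP5 and LPL (higher) and KLF15, SLC27A6 and PPARGC1B (lower), and in the libraries labelled ZNF503 FABP5 and NRIP1 (higher) and ACSL4, PPARGC1B and SLC27A6 (lower). No gene of the list was called against TRAC in any target, and with the block 2 were, ACACB and ACAD9, both lower in VM ZNF711 (adjusted p = 0.0498 and 0.0397). Hepatic markers were lower in AM in 10 of 14 genes (AFP 306 against 5779 CPM, APOA4 at log2 -7.99). ACSL5 is also known from liver, and the part of such cells in these values was not tested.

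**Figure D5:**
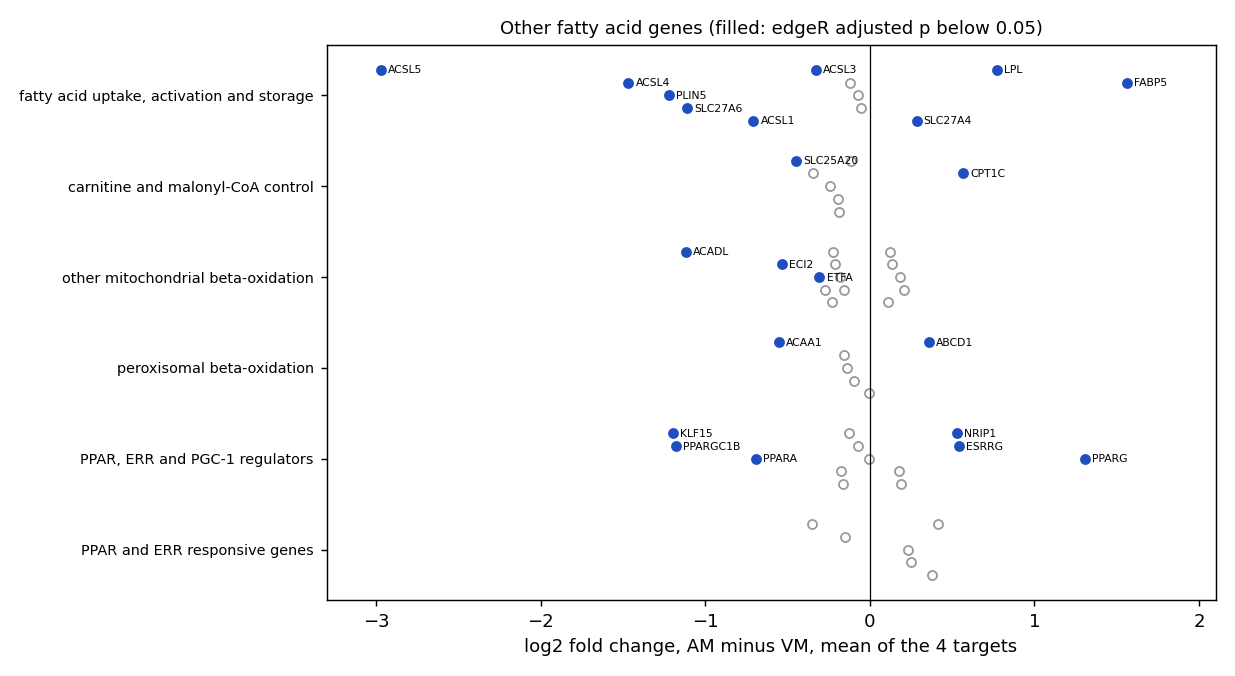
log2 fold change, AM minus VM over the mean of 4 targets, of the other fatty acid genes by list; filled points are called and named. CIDEC, at 0 in all AM libraries, is not drawn. FABP5 lies farthest right at 1.56 and ACSL5 farthest left at -2.97.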

How the data were processed

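RNA of 24 libraries was sequenced after ribosomal depletion per the labels' extraction protocol, although the labels' molecule field reads polyA. The authors deposited 1 table of whole-number counts per gene on GRCh38, and the submitters' processing notes name STAR; the counting program, its strand setting and the annotation are not given in the sources used here. Gene symbols came from GENCODE 29 (62686 of 62757 identifiers matched). The members, the other lists and the markers were chosen with earlier results of these data known. One gene of the responsive list is not reported here and was left out of that list's counts. All 24 libraries were fitted with edgeR 4.0.16 (limma 3.58.1, R 4.3.3): TMM scaling, filterByExpr, 1 mean for each of 8 groups, robust quasi-likelihood, and Benjamini-Hochberg adjustment over 17724 genes. Alternatives were other scaling and filters, DESeq2 1.42.0, single libraries left out, and the replicate number as a block, which was used because same-numbered libraries deviate together (correlation 0.125 to 0.786 over 30 pairs). Another, leaving out replicate 3 of all 4 VM groups together, was chosen after seeing the data. Members were named by rule, as were up to 3 rising and 3 falling pathway genes per comparison. Exon lengths were the union of GENCODE exons.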

Additional observations from a re-analysis of the deposited data

How the results depend on the processing

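When each library was dropped in turn, edgeR called 1 to 3 members in TRAC (2 with all libraries), 1 to 2 in LHX2 (2), 0 to 2 in the libraries labelled ZNF503 (3), and 2 to 3 in ZNF711 (2), for AM against VM. Over the mean of the 4 targets it gave 6 to 7 (7). In VM, ZNF711 against TRAC gave 0 to 3 (0). For AM against VM, calls over all tested genes fell in these fits too. In TRAC they went from 2003 to between 1147 and 1812, and in LHX2 from 1517 to between 902 and 1272. A fit of only the groups compared gave 1 member in TRAC (6.44% of all genes) and dropped CPT1A there (adjusted p = 0.0514). Without a filter on low counts, 1 member (PPARGC1A) was called in VM for ZNF711 against TRAC, among 495 of 38838 genes (1.27%). With replicate 3 of all 4 VM groups left out, chosen after seeing the data, 3 were called there, among 884 of 18312 genes, and 1 in the ZNF711 interaction, among 281. The fit without VM TRAC replicate 3 called 637 of 18515 genes there. The cause was not tested. The replicate block gave 2, 3, 4 and 3 members called for AM against VM in TRAC, LHX2, the libraries labelled ZNF503 and ZNF711, 7 over the mean, and 0 against TRAC. ACADM over the mean, at 0.03, became -0.10 without those VM libraries and ranged from -0.0154 to 0.0963 over the fits without 1 library, while HADHB became -0.0177 without those VM libraries. The remaining settings kept each of these counts within 1.5 times. At these depths the files leave CD36 and CPT1B near the floor.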
